A study of Mus musculus with 6 samples.

Results

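Nupr1 and 37 genes of the integrated stress response and the unfolded protein response were followed in macrophages that were sorted out of mammary glands carrying MMTV-PyMT tumours. The 38 genes were picked out by symbol from a table of 43432 genes, and all 38 were found, each on 1 row. Nupr1 was picked because it was among the genes called between the ages in these same libraries, so its difference is a description here and not evidence. The other 37 were picked by known function and put in 2 blocks. The amino acid stress block holds 20 genes around Atf4 and the unfolded protein block holds 17 genes around Xbp1 and Atf6.

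The mice were females of the FVB/N strain. All carried the polyomavirus middle T transgene, which the mammary tumour virus promoter drives chiefly in mammary epithelium, and no mice without it were analysed here. Live cells were sorted as CD45+, MHCII+ and CD14+, and RNA was sequenced at 8 weeks of age (3 libraries, early tumours) and at 11 weeks (3 libraries, late tumours). The titles number the libraries within each age as an1 to an3, where "an" may stand for animal, but no label says that the samples came from separate animals. The p-values therefore reflect only how far these samples differ from one another, and part of that may be technical.

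As background, cells answer shortage of amino acids and faults in protein folding through linked routes. The kinases PERK (Eif2ak3) and GCN2 (Eif2ak4) phosphorylate the translation factor eIF2, whose alpha subunit is encoded by Eif2s1, which slows general translation but favours translation of Atf4 mRNA. ATF4 then switches on genes for amino acid synthesis and uptake, other stress factors such as CHOP (Ddit3), and Nupr1, a small stress-induced chromatin protein. In the endoplasmic reticulum (ER), IRE1 (Ern1) splices Xbp1 mRNA and ATF6 is cut into an active factor, and both raise chaperones such as BiP (Hspa5) and the machinery that degrades misfolded protein. Because splicing, cleavage, phosphorylation and translation carry these signals, gene totals such as those measured here do not show them.

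The promoters of 4 members are shown because they hold the DNA elements by which these routes are known to act. They include genes whose values lay fully apart between the ages and genes whose values overlapped. Each is the 160 bases before the transcription start, from RefSeq (GRCm38.p6), read along the gene's strand. Capitals mark matches to the composite element of ATF4 and C/EBP (TGATGNAAN), to the ER stress element (CCAAT, then any 9 bases, then CCACG) or to the ER stress element II (ATTGG, then any 1 base, then CCACG), searched on both strands. They are Nupr1 (chr7:126625471-126625630, minus strand), Herpud1 (chr8:94386269-94386428, plus strand), Atf3 (chr1:191183334-191183493, minus strand) and Hspa5 (chr2:34771930-34772089, plus strand).
Nupr1: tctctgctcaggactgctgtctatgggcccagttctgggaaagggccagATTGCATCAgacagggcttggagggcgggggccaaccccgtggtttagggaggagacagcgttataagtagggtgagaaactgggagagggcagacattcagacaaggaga
Herpud1: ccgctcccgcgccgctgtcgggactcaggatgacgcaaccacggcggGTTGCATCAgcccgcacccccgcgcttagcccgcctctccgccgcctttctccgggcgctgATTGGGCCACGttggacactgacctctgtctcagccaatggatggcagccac
Atf3: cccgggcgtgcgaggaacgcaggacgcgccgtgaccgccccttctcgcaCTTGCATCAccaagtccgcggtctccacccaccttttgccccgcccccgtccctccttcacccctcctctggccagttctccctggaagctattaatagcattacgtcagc
Hspa5: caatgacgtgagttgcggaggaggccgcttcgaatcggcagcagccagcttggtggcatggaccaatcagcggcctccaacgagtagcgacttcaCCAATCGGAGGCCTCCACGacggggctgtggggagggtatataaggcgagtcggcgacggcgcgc

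Promoters of 300 bases, from 250 before to 50 after the start, were found for 35 of the 38 members. Positions are counted from the start, whose own base is 0. The composite element was in 6 of the 35, against 3.95% of all 32851 promoters. Its match began at -111 in Nupr1 (ATTGCATCA), at -111 in Atf3 (CTTGCATCA), at -113 in Herpud1 (GTTGCATCA) and at -194 in Chac1 (GTTGCATCA), each on the strand opposite to the gene. Trib3 held TTTACATCA at 13 and Asns held TGATGAAAC at -23. Herpud1, a gene of the unfolded protein block, was the only member of these 6 outside Nupr1 and the amino acid stress block. It was also the only member with the ER stress element II (ATTGGGCCACG at -52), which 0.0365% of all promoters held. The letters ATTGG of that element are a CCAAT box read on the other strand, so every match holds one. The ER stress element was in Hspa5, Pdia6, Calr, Canx, Syvn1 and Creld2, which are 6 of the 15 promoters of the unfolded protein block, in 0 of 19 of the amino acid stress block and in 0.119% of all promoters. The cyclic AMP response element (TGACGTCA) was in Ppp1r15a alone among the members, against 1.79% of all promoters. The unfolded protein response element (TGACGTGG) was in 0 of the 35, against 0.676% of all. A match describes these letters only.

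Each library held 38784432 to 75004878 recovered reads, and mitochondrial ribosomal RNA made up 35.2% to 51.8% of the values. All 12 macrophage markers, among them Cd68, Csf1r, Emr1 and Mertk, were detected in every library, and their summed level, of which Lyz2 is the largest share, was 958822 to 1153291 normalized counts at 8 weeks and 916305 to 1018490 at 11 weeks. Cd14 and Ptprc, the gene of CD45, encode proteins used for the sort, so their detection is no independent sign of cell type. Single markers moved within that sum. Cd74, the invariant chain of MHC class II, fell to 0.506 of its 8-week mean (log2 fold change -0.98, limma adjusted p = 0.00111) and is 1 of the genes called over all genes. Csf1r and Ptprc lay fully lower at 11 weeks and Cd14, Fcgr1, Mrc1 and C1qb fully higher, none of these 6 passing the test. With Cd74, 4 of the 12 lay fully higher and 3 fully lower, beside 6.81% and 5.12% of all genes. The 16 mammary epithelial markers summed to 10142 to 13805 at 8 weeks and to 27440 to 55136 at 11 weeks. Most of that sum is Csn3, at 5232.1 to 8277.1 and 19883.5 to 32482.5. Log2 fold changes were positive for 15 markers, of which limma called 1 (Csn3), and negative for Krt14. In 6 of the 16 the ages lay fully apart, all higher, beside 6.81% of all genes. They were Csn1s1, Csn2, Csn3, Wap, Wfdc18 and Krt19, while the ages overlapped in Epcam, Krt8, Krt18, Cdh1 and Elf5, among others. Of the 12 neutrophil markers 9 were tested, 8 with a positive log2 fold change, and all 8 fibroblast markers had a positive one. Limma called 0 in either list, with 5 and 3 at an unadjusted p under 0.05, beside 8.03% of all genes. The neutrophil markers summed to 1864 to 4508 and 5948 to 6700, with Elane at 0 in every library. Csf3r, with a log2 fold change of 0.13, makes up most of that sum at 8 weeks, and Ly6g and Camp reached at most 0.9 and 2.8. In 4 of the 9 tested the ages lay fully apart, all higher, beside 6.81% of all genes. They were S100a8 (means 64 and 438.6), S100a9 (95.33 and 1255), Cxcr2 (58.77 and 557.9) and the scarce Retnlg (1.733 and 41.43). The fibroblast markers summed to 789.3 to 1891 and 1797 to 4129. The 10 plasma and B cell markers, a cell type rich in ER chaperones, summed to 3530 to 5232 and 3002 to 5540, with Mzb1 at 0 throughout. Most of that sum is Irf4, at 2952.2 to 4224.4 and 2522.2 to 3974.3, so it says little of these cells. Among the others Igj was at 43.7 to 76.2 and 7.4 to 43.3, and Cd79a at 0 to 1.8 and 0 to 39.9. The 5 endothelial markers summed to 404.6 to 543.1 and 674 to 1143. Of these markers 2 had a positive log2 fold change (Cdh5 and Pecam1) and 3 a negative one (Kdr, Vwf and Tek). Cdh5 lay fully higher at 11 weeks (means 37.07 and 327.4) and Tek fully lower (24.67 and 3.033). The mean of Kdr was 53.2 at 8 weeks and 136.3 at 11 weeks, with replicate 3 of 11 weeks at 388.8. The 5 plasmacytoid dendritic cell markers summed to 7484 to 9966 and 6962 to 8005. Tcf4 makes up most of that sum, while Siglech was at 302.3 to 478 and 102.8 to 252 (limma adjusted p = 0.603). In such bulk samples fewer cells of a type and less RNA per cell cannot be told apart.

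Nupr1 was higher at 11 weeks, while the genes of the blocks around it went both ways. Across all 21675 genes tested, limma called 11 at an adjusted p of 0.05, or 0.0507%, of which 8 were higher (0.0369%) and 3 lower (0.0138%). With scaling to library totals 4 were higher and 0 lower, and with upper-quartile scaling 10 were higher and 2 lower. Of the 38 members only Nupr1 was among the 11, and since its call is why it was picked, nothing is read from that count. The other 37 members gave 0 calls, with 3 at an unadjusted limma p under 0.05 (Ddit3, Cebpg and Herpud1), against 8.03% of all genes. DESeq2 on the recovered reads gave an adjusted p to 18 of the 20 and 17 of the 17 block genes and called 1, Herpud1, beside 2.63% of the 15874 genes to which it gave one. edgeR called 0 of the 37, beside 0.0646% of all genes. The median log2 fold change was -0.14 in the amino acid stress block and -0.07 in the unfolded protein block, beside 0.05 over all genes tested.

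**Figure D1:**
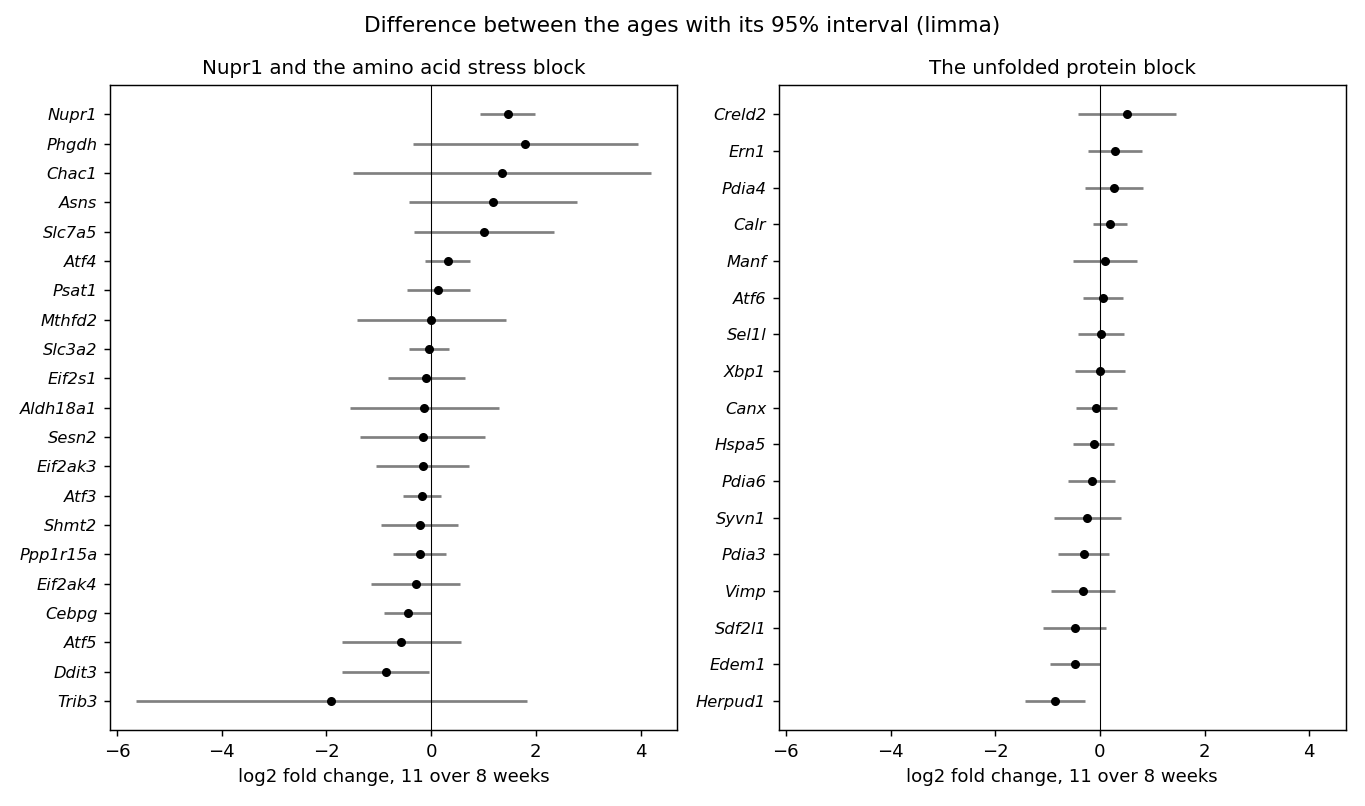
Log2 fold change of each member between the ages (11 over 8 weeks, on the log2(normalized count + 1) scale) with its 95% interval from limma, for Nupr1 with the amino acid stress block on the left and the unfolded protein block on the right. Nupr1 lies at 1.46 and Herpud1 at -0.86, while the intervals of most other members span 0 and are widest for the scarce Trib3 and Chac1.

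Nupr1 (ENSMUSG00000030717, chromosome 7, 126623249 to 126630861, protein-coding) stood at 1297.3, 1525.3 and 1833.7 normalized counts in 8-week replicates 1, 2 and 3, and at 3886.6, 3955.7 and 4947.8 in 11-week replicates 1, 2 and 3. All 3 late libraries lay above all 3 early ones. The means were 1552 ± 269.2 and 4263 ± 593.7 (SD, n = 3), a ratio of 2.75, and the log2 fold change was 1.46 ± 0.24 (SE; limma adjusted p = 0.0396, the value that chose it). The adjusted p was 0.0836 with a pseudocount of 5, 0.0595 with no filter on low values and 0.104 with scaling to library totals. Leaving out any of the 6 libraries also took it past 0.05, with adjusted p of 0.0633 to 0.216 and a log2 fold change of 1.34 to 1.59. Over all alternatives the adjusted p ran from 4.7e-07 (DESeq2) to 0.522. In the authors' deposited table its log2 fold change is 1.351. The summed epithelial, neutrophil and endothelial markers lay fully higher at 11 weeks, and the fibroblast sums overlapped at their edges. Most of the epithelial sum is Csn3, and single endothelial markers went both ways. In 11-week replicates 1, 2 and 3 the epithelial sum was 55135.7, 27440.1 and 50975.6 and the fibroblast sum 2983.8, 1797.3 and 4129.2, with Nupr1 highest in replicate 3. The part of other cell types in the level of Nupr1 was not tested.

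**Figure D2:**
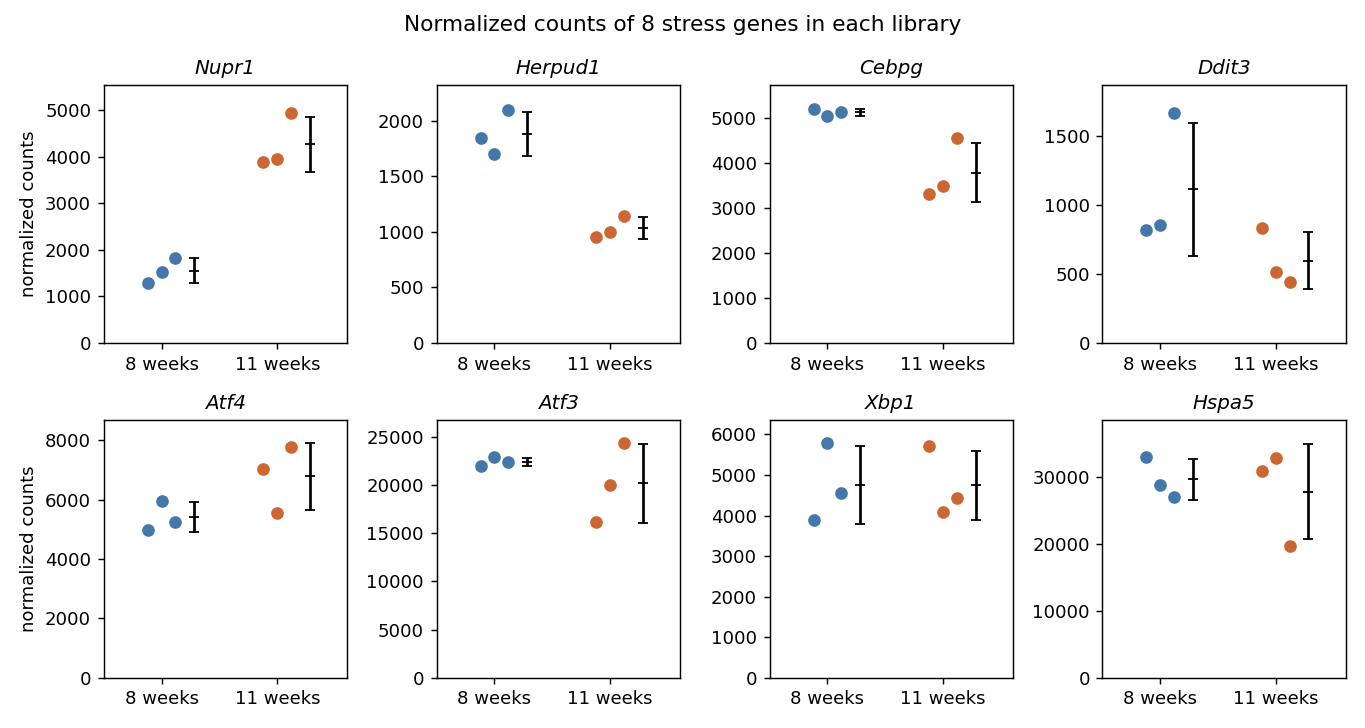
Normalized counts of 8 members, 1 point per library, with the mean and SD (bars, n = 3) at the right of each age and axes that start at 0. Nupr1 is higher and Herpud1 and Cebpg lower in all 3 libraries of 11 weeks, while the ages overlap in Ddit3, Atf4, Atf3, Xbp1 and Hspa5.

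The 8-week and 11-week values lay fully apart in 5 of the 38 members, beside 11.9% of all tested genes. The count includes Nupr1, which was picked for its difference. They were Nupr1, Calr and Phgdh on the higher side (6.81% of all genes) and Herpud1 and Cebpg on the lower side (5.12% of all genes). Phgdh, the first enzyme of serine synthesis, was listed at 0 in the 3 libraries of 8 weeks and at 2.8, 2 and 2.7 in those of 11 weeks, which is 2 or 3 reads. Phgdh and Chac1 passed the filter on low values only through their 11-week values, so the separation of Phgdh carries no weight, and Chac1 overlapped between the ages.

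The kinases and their target came first in the route and showed no difference that passed the test. Eif2ak3, the kinase that senses ER stress, was at 470.8, 471 and 343.3 normalized counts at 8 weeks and at 395.4, 325.6 and 426 at 11 weeks, so the ages overlapped. Eif2ak4, the kinase that senses uncharged tRNA, was at 422.6, 551.4 and 602.1 and then at 346.6, 450.6 and 487.6, again overlapping. Their log2 fold changes were -0.16 (95% interval -1.05 to 0.73) and -0.29 (-1.14 to 0.55). Eif2s1 was at 1824.5 to 2290.6 at 8 weeks, and at 11 weeks it was at 2649 and 2564.6 in replicates 1 and 2 but at 972.5 in replicate 3.

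Among the transcription factors, the mRNA of Atf4, the central factor of the block, was at 4994, 5973.7 and 5267.2 normalized counts at 8 weeks and at 7026.7, 5566.6 and 7768.3 at 11 weeks. Replicate 2 of 11 weeks lay inside the early range, and the log2 fold change was 0.32 ± 0.20 (SE; 95% interval -0.11 to 0.75; limma adjusted p = 0.745). Ddit3, which encodes the pro-apoptotic factor CHOP, was at 815.8, 852 and 1666.3 at 8 weeks and at 829.4, 511.1 and 443.2 at 11 weeks. Its mean was lower at 11 weeks (1111 ± 480.9 against 594.6 ± 206.2, SD, n = 3; log2 fold change -0.87 ± 0.39, SE; limma adjusted p = 0.603), with 8-week replicate 3 far above the other early libraries, and without that library the log2 fold change was -0.54. The end of Ddit3 overlaps Mars on the opposite strand, and with strand not stated in the counting the reads of the overlap cannot be told apart.

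Cebpg, whose product pairs with ATF4 on DNA, was at 5213.4, 5060.8 and 5145.1 normalized counts at 8 weeks and at 3321.2, 3506.1 and 4556.2 at 11 weeks. All 3 late libraries lay below the early ones, which were close together, and replicate 3 was the nearest to them. The log2 fold change was -0.45 ± 0.21 (SE; limma adjusted p = 0.618). Atf3, a stress-induced repressor and activator, was the most abundant member per exon length, at 22021.6, 22878.1 and 22370.5 and then at 16150.7, 20019.6 and 24403.5. The late libraries lay on both sides of the early ones. Atf5, a relative of Atf4 that is likewise regulated at translation, was at 251.4 to 468.3 and at 150.2 to 491.9, and it overlaps the more abundant Nup62.

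No feedback gene of the block passed the test. Ppp1r15a, whose product GADD34 leads a phosphatase to eIF2, was at 3621.8 to 5116.2 normalized counts at 8 weeks and at 2748 to 4158.3 at 11 weeks. Sesn2, an inhibitor of mTORC1 signalling, was at 165.7 to 466.9 and at 173.4 to 352.6. Trib3, a pseudokinase that restrains ATF4 and CHOP, was at 69.5, 95.6 and 0 and then at 3.7, 1 and 12.7, so 8-week replicates 1 and 2 stood above the other 4 libraries. Chac1, which degrades glutathione, was at 0, 0 and 0.9 and then at 0, 0 and 30.8, a signal of 1 library.

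The genes of amino acid supply also went both ways. Asns, which makes asparagine, was at 33, 92.8 and 179.4 normalized counts at 8 weeks and at 251.9, 224.8 and 116 at 11 weeks (log2 fold change 1.18 ± 0.76, SE; limma adjusted p = 0.747). Replicate 3 of each age lay inside the range of the other age. The log2 fold change was 1.74 without 8-week replicate 3 and 0.53 without 8-week replicate 1. Slc7a5, the light chain of the large neutral amino acid transporter, was at 237.2, 91.4 and 705.5 and then at 757.7, 361.9 and 457.7, with a log2 fold change of 1.01 that was 0.29 without 8-week replicate 2 and 1.76 without 8-week replicate 3. Slc3a2, the heavy chain of the same transporter, was far steadier, at 7397.9 to 9520.3 and at 7612.4 to 8315.7 (log2 fold change -0.04, 95% interval -0.43 to 0.35). Psat1, the second enzyme of serine synthesis, was at 1797 to 1955.4 at 8 weeks, and only 11-week replicate 2 (3082.7) stood above that range while replicate 1 (1554.8) stood below it. The mitochondrial one-carbon enzymes Shmt2 and Mthfd2 and the proline enzyme Aldh18a1 had log2 fold changes of -0.22, 0.00 and -0.13, with values of the ages overlapping in each.

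The factor Xbp1 and the sensors Atf6 and Ern1 of the unfolded protein block each stood at close levels at the 2 ages. Xbp1 was at 3899.1, 5793.6 and 4567.7 normalized counts at 8 weeks and at 5707.2, 4092.8 and 4441.1 at 11 weeks, a log2 fold change of 0.00 with a 95% interval of -0.47 to 0.48. Atf6 was at 8417.9, 6648.4 and 7862 and then at 7994, 8042.5 and 7676.8 (0.06, interval -0.33 to 0.44). Ern1 was at 3138.6, 2935.6 and 2663.9 and then at 3518.9, 2758.1 and 4593.4 (0.29, interval -0.23 to 0.80). The ages overlapped in all 3 genes. A doubling, a log2 fold change of 1, lies outside each of these 3 intervals.

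Herpud1, an ER membrane protein that serves the degradation of misfolded proteins, was lower at 11 weeks and had the smallest p of the block. It (ENSMUSG00000031770, chromosome 8, 94386438 to 94395377, protein-coding) was at 1843, 1697.1 and 2090.8 normalized counts at 8 weeks and at 955.3, 999 and 1140.2 at 11 weeks. All 3 late libraries lay below all 3 early ones, with means of 1877 ± 199 and 1032 ± 96.64 (SD, n = 3), a ratio of 0.55. The log2 fold change was -0.86 ± 0.27 (SE; 95% interval -1.44 to -0.28; unadjusted p = 0.00621, limma adjusted p = 0.386), so it did not pass over all genes. It kept its sign under every alternative, from -0.95 to -0.78, and the call differed by tool: DESeq2 on the recovered reads gave an adjusted p of 0.00944, edgeR gave 0.308, and 0.008 is the value in the authors' deposited table. That table passes 1.91% of its genes with an adjusted p, and among the members Nupr1 and Herpud1. The first bases of Herpud1 overlap an antisense RNA on the other strand at a mean of 76.25 normalized counts.

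The other degradation genes differed less. Edem1, which delivers misfolded glycoproteins for disposal, was at 9438.8, 8283.2 and 8007.2 normalized counts and then at 6769.2, 8065.7 and 4261.7, with 11-week replicate 2 just inside the early range (log2 fold change -0.48 ± 0.23, SE; limma adjusted p = 0.634). Without 11-week replicate 3 its log2 fold change was -0.21. Sel1l and Syvn1, the core of the ubiquitin ligase that removes such proteins, had log2 fold changes of 0.03 and -0.24, and Vimp, which recruits the VCP ATPase, -0.33, all with overlapping ages.

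Of the chaperones, Hspa5 (BiP, the master Hsp70 of the ER) was at 33096.6, 28928.1 and 27147.5 normalized counts at 8 weeks and at 30978.3, 32963.4 and 19700.4 at 11 weeks. Its log2 fold change was -0.12 (95% interval -0.52 to 0.27), and replicate 3 of 11 weeks lay below the other 5 libraries. Calr, a lectin chaperone of glycoproteins, was at 16223.3, 15854.3 and 17178.5 and then at 19300.8, 18291.7 and 18574.7. The ages did not overlap, but the difference was small (0.19 ± 0.15, SE; limma adjusted p = 0.799). Its membrane-bound partner Canx was at 15856.3 to 19662.3 and at 12807.6 to 19163.7.

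The disulfide isomerase Pdia3 was at 25099.5, 18733.1 and 19760.4 normalized counts and then at 20883.3, 21797.8 and 10763.8, and the ages overlapped (log2 fold change -0.31 ± 0.23, SE; limma adjusted p = 0.794). Sdf2l1, a cofactor of the BiP cycle, was at 2578.6, 3690.6 and 2990.2 and then at 2665.6, 2724.9 and 1448.3 (-0.48 ± 0.28, SE; limma adjusted p = 0.717). Without 11-week replicate 3 the log2 fold changes of Pdia3 and Sdf2l1 were 0.02 and -0.18. Pdia4 and Pdia6, further disulfide isomerases, had log2 fold changes of 0.27 and -0.16. Creld2, an ER-stress-induced secreted protein, was at 537.7, 1540.5 and 521.9 and then at 1013.3, 1698.6 and 743.2, so replicate 2 was highest at each age. Manf, a secreted ER stress protein, was at 1170.7 to 1708.2 and at 1206.4 to 1843.5, and its span overlaps 2 other expressed protein-coding genes.

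Replicate 3 of 11 weeks stood apart in the unfolded protein block. It held the lowest value of the 6 libraries in 7 of the 17 genes (Hspa5, Sdf2l1, Pdia3, Pdia4, Canx, Edem1 and Syvn1), or 41.2%, where it was lowest in 12.8% of all genes tested. The median of the block's genes relative to their own means was -0.29 on the log2 scale in that library, and -0.01 to 0.15 in the other 5. In Calr, Pdia6, Ern1 and Manf it was not the lowest of the late libraries, and in the amino acid stress block the same library had a median of 0.10. In the list of 45 other unfolded protein genes described below it did not stand apart. Its median there was 0.05, and the 6 libraries ran from -0.07 to 0.10. These genes were named after their values were seen, and the pattern was not tested. Without that library the median log2 fold change of the unfolded protein block was 0.04 and that of the amino acid stress block -0.24.

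**Figure D3:**
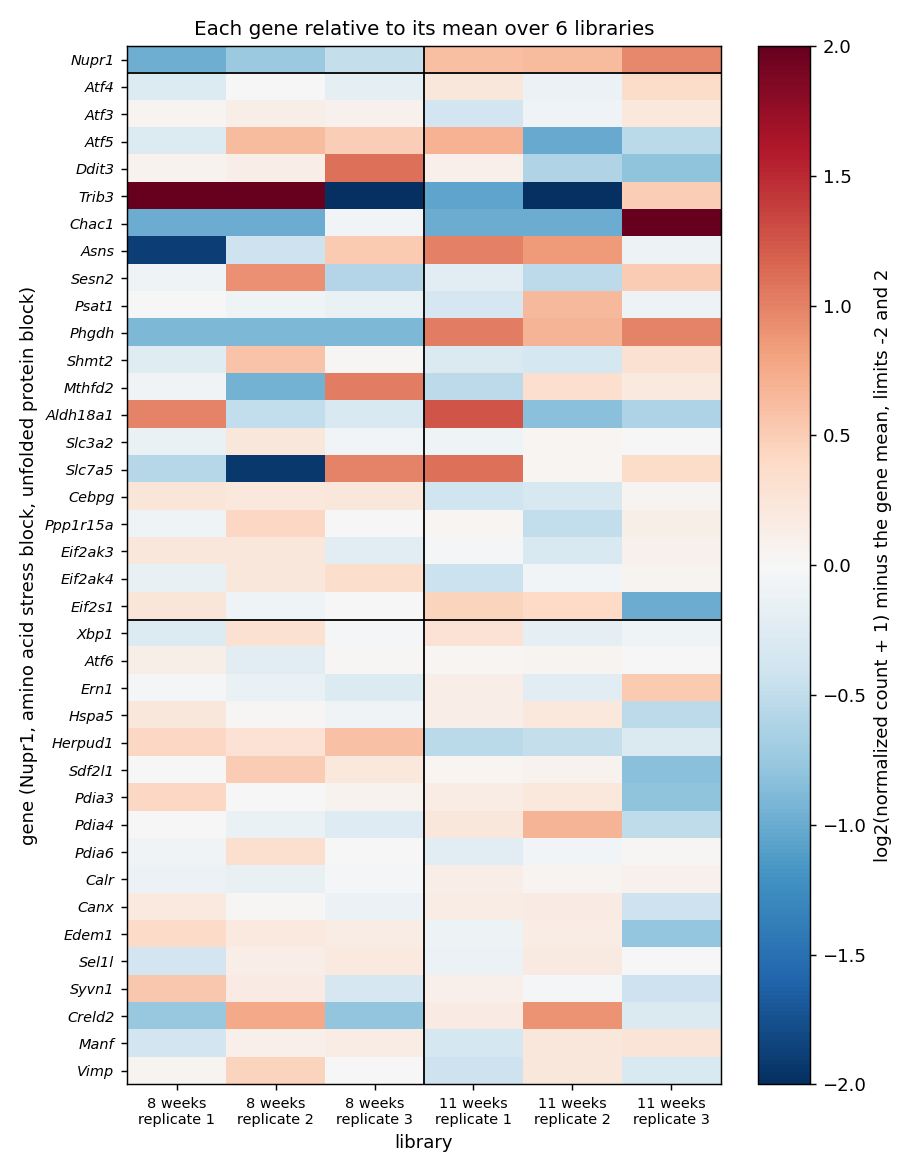
Each member (rows, with lines between Nupr1, the amino acid stress block and the unfolded protein block) in each library (columns, with a line between the ages), coloured by log2(normalized count + 1) minus the gene's mean over the 6 libraries, with colours limited at -2 and 2. Nupr1 changes colour with age, Herpud1 does so the other way, and a run of chaperone genes is blue in 11-week replicate 3.

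Per kilobase of exon, levels ran from 9892 normalized counts for Atf3 to 0.5028 for Phgdh, as means of the 6 libraries over exon lengths of the GENCODE M21 annotation. After Atf3 came Hspa5 (6811), Pdia3 (6214), Calr (6101) and Canx (3690), followed by Atf4 (2587). Nupr1, at 1157, was 13th of 38, next to Edem1 (1158) and Pdia6 (1144), which differ from it by far less than its own spread over the libraries. The lowest of the 17 genes of the unfolded protein block, Syvn1, lay at percentile 83.4 of the tested genes. In the amino acid stress block Trib3 (14.31), Chac1 (3.227) and Phgdh (0.5028) were the scarcest, and Asns (54.72) and Mthfd2 (49.4) lay near the middle of all tested genes, at percentiles 54.8 and 53.1. The median SD within an age was 0.27 on the log2 scale for the 25 members whose mean reached 1000 normalized counts, and 0.29 for all 4489 genes at that level.

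**Figure D4:**
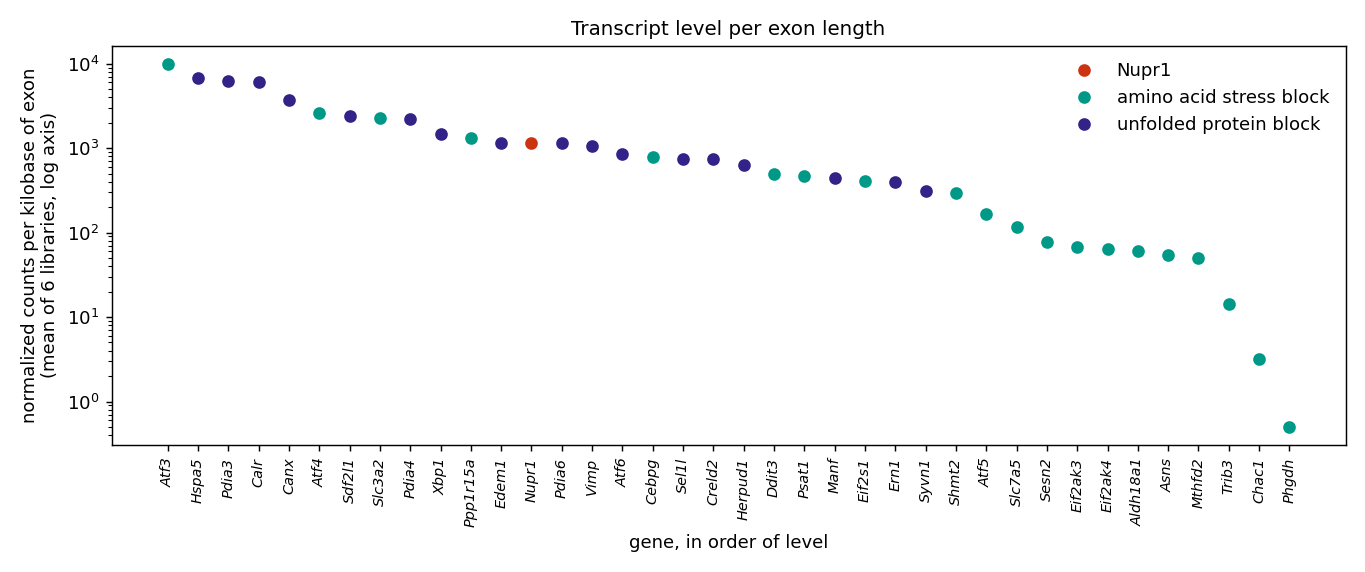
Mean normalized counts per kilobase of exon over the 6 libraries (log axis) for the 38 members in order of level, coloured by block. Chaperones and Atf3 are at the upper end, Nupr1 is 13th at 1157, and the lowest 12 are all genes of the amino acid stress block.

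Further genes of the same routes were taken from 2 lists of known members. Of 40 other amino acid stress genes 38 were tested and 0 were called by limma, with 5 higher and 1 lower at an unadjusted p under 0.05, beside 8.03% of all genes. On the recovered reads edgeR called 0 and DESeq2 called 2 (Gpt2 and Stc2) of the 37 to which it gave an adjusted p, beside its 2.63%. Stc2 passed the filter on low values only through 11 weeks, so nothing is read from its place in these counts or in the next. The list's median log2 fold change was 0.18, beside 0.05 over all genes. In 9 of the 38 the ages lay fully apart, 7 higher and 2 lower, beside 11.9% of all genes (6.81% higher and 5.12% lower). Gpt2, an alanine aminotransferase of mitochondria, was at 1018.2, 1366 and 1346.9 normalized counts at 8 weeks and at 2126.8, 2275.2 and 2934.8 at 11 weeks, with no overlap (log2 fold change 0.97 ± 0.27, SE; limma adjusted p = 0.309). Klhl24, an adaptor of a ubiquitin ligase, was at 5486.2, 7747 and 8576 and then at 3478.4, 5043.4 and 1974, with no overlap on the lower side (-1.13 ± 0.29, SE; limma adjusted p = 0.255). Trib1, a relative of Trib3, was at 10929.2 to 12770.5 and at 14061.8 to 18183.2 (0.52 ± 0.17, SE; limma adjusted p = 0.415). Stc2, a secreted glycoprotein, was at 0, 1.4 and 0 and then at 22.1, 12.1 and 103.3, and the lipoprotein receptor gene Vldlr was at 7.1, 0 and 0 and then at 38.6, 11.1 and 57.1, both scarce.

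Of 45 other unfolded protein genes all were tested and 0 were called by limma, with 1 higher and 2 lower at an unadjusted p under 0.05, beside 8.03% of all genes. On the recovered reads edgeR called 0 and DESeq2 called 1, Rcn3, beside its 2.63%. The median log2 fold change was 0.09, and 8 did not overlap, 4 higher and 4 lower, beside 11.9% of all genes (6.81% higher and 5.12% lower). Crebrf, a regulator of the CREB3 factor, was at 4270, 5765.9 and 8828.8 normalized counts at 8 weeks and at 3625.5, 3393.2 and 2172.5 at 11 weeks (log2 fold change -1.01 ± 0.28, SE; limma adjusted p = 0.307). Rcn3, a calcium-binding protein of the ER, was at 1018.2, 939.3 and 1185.5 and then at 2812.7, 1601.8 and 2135.4 (1.03 ± 0.29, SE; limma adjusted p = 0.31). Neither gene overlapped between the ages. Hsp90b1, the Hsp90 of the ER, was at 39560.1 to 43058 and then at 34460.3, 37253.8 and 20540.6, all below the early range and lowest in replicate 3, the library in which Hspa5 was also lowest (-0.47 ± 0.19, SE; limma adjusted p = 0.55). P4hb, a disulfide isomerase, and Derl2, a channel component of ER-associated degradation, were each at a limma adjusted p of 0.637, with log2 fold changes of 0.40 (ages overlapping) and 0.59 (not overlapping).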

How the data were processed

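Per the submitters' processing notes, STAR 2.4, DESeq2 1.6 and GRCm38 were used, with no role given. Neither the sources used here nor the file header gives the counting tool or annotation release. In the files, the deposited table holds 1 signal value per gene and library, gene counts divided by a size factor, which the values themselves show: in each library 99.275% or more of the nonzero values are whole multiples of 1 step within 0.05. It also holds the authors' log2 fold change, linear fold ratio, p-value and adjusted p-value, by a test the header does not name. Per the labels, the libraries were built from low amounts of RNA with NuGEN Ovation and Nextera kits.

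The main test was limma 3.58.1 (trend and robust empirical Bayes, R 4.3.3) on log2(normalized count + 1), with age as the only term, for genes with a mean of at least 1 in either age, adjusted by Benjamini and Hochberg over all of them. The pseudocount understates changes of scarce genes. edgeR 4.0.16 (quasi-likelihood) and DESeq2 1.42.0 on recovered reads were alternatives, with other scalings, filters, pseudocounts, a replicate block and each library left out. The steps were run on simulated data with known changes. The share of these changes that was called is not given here, so a gene that was not called may still differ. Members and lists were chosen with earlier results of these data known, so no list was tested. Values in every library are given for Nupr1, the sensors and main factors, Hspa5 and the 6 members per block with the smallest p. The 5 genes with the smallest p of each further list are named, some by their range, and other members were named by role. Vimp was matched to its promoter by gene ID (RefSeq symbol Selenos). No pair of libraries held identical values.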

Additional observations from a re-analysis of the deposited data

How the results depend on the processing

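The number of genes called was 4 with scaling to library totals, 418 with DESeq2 and 45 with the replicate block, against 11, and 3 to 16 with 1 library left out. Keeping the genes that passed the filter over all 6 libraries, an alternative chosen after seeing the data, made this last range 0 to 8. The count of 3 came without 8-week replicate 1 and the count of 4 without 11-week replicate 1. The number of members called, 1, was 0 with a pseudocount of 5, with no filter, with scaling to totals and without any 1 library (0 to 0 with either filter), and 2 with DESeq2. Nupr1 was then at log2 fold changes of 1.46, 1.46, 1.37 and 1.34 to 1.59. The median of the amino acid stress block ran from -0.24 to -0.08 with 1 library left out (-0.27 to -0.08 with the full filter) and that of the unfolded protein block from -0.17 to 0.04; under the other alternatives both stayed negative.

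Of the named genes the sign of the log2 fold change turned in Xbp1 (-0.09 with totals, -0.01 with TMM, -0.01 with edgeR and -0.002 with DESeq2; -0.14 to 0.15 with 1 library left out, among them -0.13 and -0.02) and Atf6 (-0.03 with totals; -0.04 to 0.13). With 1 library left out it also turned in Hspa5 (-0.26 to 0.11) and Pdia3 (-0.49 to 0.02). The causes were not tested. Of the alternatives run, only DESeq2 passed Herpud1, Gpt2, Stc2 and Rcn3; the authors' deposited table also passes Herpud1, Gpt2 and Rcn3.

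Same-numbered libraries of the 2 ages did not deviate together (Pearson r over 15732 genes of -0.038 to -0.006, against 0.001 to 0.032 for other pairs), so the replicate block, which raised the count of calls to 45, pairs libraries by number only; among the members it called Nupr1 alone (adjusted p = 0.0122). Where 1 library is left out an age has 2. Depth limits Phgdh, Chac1, Trib3, Stc2 and Vldlr, which rest on few reads.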

Other observations

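Libraries of 1 age differed in some genes of amino acid supply with a spread near the median over all tested genes. That median takes in scarce genes and is not matched to the level of these genes. Aldh18a1, which starts proline synthesis, was at 410.2 and 491 normalized counts in replicate 1 of 8 and 11 weeks and at 114.9 to 165.7 in the other 4 libraries. Mthfd2 ran from 80.4 to 318.6 within 8 weeks. The SD within an age on the log2 scale was 0.99 for Aldh18a1, 1.11 for Slc7a5, 0.96 for Asns and 0.77 for Mthfd2, against a median of 0.88 over all genes tested. That of Nupr1 was 0.22, of Herpud1 0.14 and of Calr 0.05. The means of these genes reached 1000 normalized counts, a level at which the median over all genes was 0.29. These genes were chosen after their values were seen.

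Nupr1 and Herpud1 hold the same 8 bases of the composite element at nearly the same distance from the start (-111 and -113). Their values lay fully apart between the ages in opposite directions, though Herpud1 did not pass limma. Atf3, which holds these bases at -111, and the scarce Chac1, which holds them at -194, overlapped between the ages. This was noticed in the data and not tested.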
